A study of Mus musculus with 14 samples.

Results

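The 5 genes described here, ALPK1, TIFA, LARP7, CNN3 and THBS3, lie on mouse chromosome 3 and were examined in macrophages sorted from the colon of mice that all carry the colitis susceptibility locus Cdcs1. They are 5 of the 24982 genes of the deposited count table. ALPK1, TIFA, LARP7 and CNN3 are genes discussed for the Cdcs1 locus. THBS3 was chosen for a different reason, namely its near absence from the double-knockout libraries and from the library of WT mouse 11, so its values in those libraries are given as a description and without a test. Whether each gene lies inside the Cdcs1 interval was not analysed here.

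The study describes its mice as C57BL/6 congenic for Cdcs1. They were 5 weeks old, and every genotype carried Cdcs1. WT mice were labelled with that background alone (Cdcs1; mice 4, 5, 10, 11 and 13), IL10RAKO mice lacked the IL-10 receptor alpha chain (Cdcs1, Il10ra -/-; mice 1, 2, 7 and 8), DKO mice also lacked the chemokine receptor CCR2 (Cdcs1, Il10ra -/-, Ccr2 -/-; mice 3, 9, 12 and 14) and the CCR2KO mouse lacked CCR2 alone (Cdcs1, Ccr2 -/-; mouse 6). The deletions are present in all cells of the animal, not in macrophages alone. For the sequenced mice the study and the sample labels name only Cdcs1 as the WT genotype, whereas for its colitis scores the study used WT littermates heterozygous for both knockout alleles. The study asked whether loss of CCR2 alters the genes that mature colonic macrophages express without IL-10 receptor signalling. Cells were gated as CD45+, CD103-, Ly6G-, CD64+, CD11b+, Ly6C- and MHCII+, and each of the 14 libraries came from 1 mouse. The labels give neither sex, litter nor batch.

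ALPK1 is a kinase that senses the bacterial sugar ADP-heptose in the cytosol and phosphorylates TIFA, an adaptor that then assembles and engages the ubiquitin ligase TRAF6 to activate NF-kB. LARP7 is the RNA-binding protein that stabilizes the 7SK RNA, a non-coding RNA that holds the transcription elongation kinase P-TEFb inactive. CNN3 is the acidic calponin, an actin-binding protein found in many cell types outside smooth muscle, and THBS3 is a secreted thrombospondin of the extracellular matrix.

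The windows around the annotated starts of 4 of these genes are shown because Tifa and Cnn3 were the members that rose in both knockouts, Thbs3 was the member chosen for its loss and Alpk1 is the signalling partner and neighbour of Tifa. Each holds 250 bases before and 50 bases after a start in RefSeq (GRCm38.p6), printed in the direction of transcription, with motif matches in capitals. The letters are those of the reference genome. The alleles that these congenic mice carry may differ from it and were not examined. For Tifa the second of 2 annotated windows is shown.
Alpk1, chr3:127780478-127780777, minus strand: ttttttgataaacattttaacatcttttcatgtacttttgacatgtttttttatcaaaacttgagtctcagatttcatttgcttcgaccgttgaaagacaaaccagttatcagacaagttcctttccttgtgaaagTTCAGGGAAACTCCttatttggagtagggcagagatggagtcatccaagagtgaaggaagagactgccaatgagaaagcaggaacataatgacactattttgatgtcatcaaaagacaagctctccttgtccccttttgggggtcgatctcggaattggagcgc
Tifa, chr3:127790407-127790706, plus strand: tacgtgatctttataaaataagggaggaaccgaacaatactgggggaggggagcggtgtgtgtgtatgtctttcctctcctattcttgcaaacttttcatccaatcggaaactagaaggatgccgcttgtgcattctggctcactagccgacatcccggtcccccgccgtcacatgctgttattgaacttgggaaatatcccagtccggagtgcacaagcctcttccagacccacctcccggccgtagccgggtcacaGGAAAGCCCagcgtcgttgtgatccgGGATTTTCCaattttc
Cnn3, chr3:121426291-121426590, plus strand: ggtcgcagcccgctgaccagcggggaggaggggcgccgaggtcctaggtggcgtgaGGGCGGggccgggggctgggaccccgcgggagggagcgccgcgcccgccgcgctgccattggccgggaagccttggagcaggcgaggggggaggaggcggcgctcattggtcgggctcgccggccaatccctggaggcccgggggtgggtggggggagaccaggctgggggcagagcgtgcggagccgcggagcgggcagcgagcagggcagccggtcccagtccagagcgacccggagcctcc
Thbs3, chr3:89214930-89215229, plus strand: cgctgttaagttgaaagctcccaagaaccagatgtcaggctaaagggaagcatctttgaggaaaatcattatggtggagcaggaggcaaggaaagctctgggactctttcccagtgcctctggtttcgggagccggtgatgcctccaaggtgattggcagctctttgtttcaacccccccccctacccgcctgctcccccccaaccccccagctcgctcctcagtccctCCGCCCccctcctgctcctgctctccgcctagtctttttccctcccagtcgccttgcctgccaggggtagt

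The letters searched, on both strands, were TTCNNNGAA (a STAT site of the GAS type), GGNNTTTCC (an NF-kB-like sequence) and GGGCGG (the GC box). The Alpk1 window held a GAS match 114 bases before the start, overlapped by an NF-kB match that began 109 bases before it. The Tifa window held 2 NF-kB matches, beginning at the 9th and the 35th transcribed base, and the other Tifa window held no match to any of these letters. A GC box was found in the windows of Cnn3, Thbs3 and Larp7. Of 32544 such windows in the genome, 8.33% held the GAS letters, 5.83% the NF-kB letters and 35.9% the GC box letters. These matches describe letters of the reference genome and not bound sites.

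In the GENCODE vM21 annotation (GRCm38, the build known as mm10), Alpk1 spans chr3:127670310-127780527 on the minus strand and Tifa chr3:127789805-127832164 on the plus strand, with 9278 bases between them. Larp7 lies 116961 bases from Alpk1 at chr3:127536714-127553349 on the minus strand. Cnn3 is found 6.079 Mb from Larp7, at chr3:121426497-121458207 on the plus strand. Thbs3, at chr3:89215180-89226837 on the plus strand, is a further 32.2 Mb from Cnn3. The counting was not stated to use strand, and 3 of the 5 genes share exon bases with a gene on the opposite strand. Thbs3 shares 318 exon bases with Mtx1, Cnn3 shares 538 with the predicted gene Gm42928 and Tifa shares 105 with the predicted gene Gm43654. Of these overlapping genes, Mtx1 is in the count table, and Gm42928 and Gm43654 are not.

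Between 12153000 and 21216468 reads per library were counted on genes, and 3 reads amounted to 0.124 to 0.22 CPM (the share of a library's counted reads in parts per 1000000, scaled by the TMM method). Il10ra was counted at 217.0 to 379.6 CPM in 4 WT libraries and at 3.41 to 11.2 CPM in the 8 libraries labelled Il10ra -/-. Ccr2 was counted at 361.0 to 702.1 CPM in the 8 WT and IL10RAKO libraries compared, at 759.0 CPM in WT mouse 11 and at 3.92 to 6.68 CPM in DKO libraries, so the targeted genes followed the labels. The summed level of 10 macrophage markers overlapped between all groups, from 13326.5 to 22163.6 CPM. H2-Aa was the largest part of this sum (means 6865.0, 9373.4 and 7352.4 CPM in WT, IL10RAKO and DKO). In the test against WT described below, 10.0% of these markers passed in IL10RAKO (Fcgr1, higher), beside 15.8% of all genes. In DKO 30.0% passed (Mertk higher, Adgre1 and Cx3cr1 lower), beside 18.5% of all genes. WT mouse 11 stood apart, with the fewest genes with reads (11670, against 13485 to 15450 in the 12 libraries compared) and a summed level of 2496.7 CPM for 6 epithelial markers, against 44.5 to 981.8 CPM in the other WT libraries. The authors' normalized table does not hold WT mouse 11 or the CCR2KO mouse. Tests therefore used 4 WT, 4 IL10RAKO and 4 DKO libraries, and these 2 further libraries are given by their values.

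Compared per kilobase of exon, Tifa was the most abundant of the 5 genes in WT macrophages (22.8 ± 4.69 CPM per kb, SD, n = 4), followed by Alpk1 (14.8 ± 5.17), Cnn3 (14.7 ± 2.07), Larp7 (10.4 ± 2.55) and Thbs3 (1.83 ± 0.688). The WT ranges of neighbours in this order overlapped except between Larp7 and Thbs3. In IL10RAKO macrophages Cnn3 led the order at 64.6 ± 21.4 CPM per kb, ahead of Tifa (35.7 ± 8.96), Alpk1 (18.5 ± 10.9), Larp7 (8.07 ± 1.24) and Thbs3 (0.186 ± 0.0583), and the order was the same in DKO macrophages. Ranges of neighbours overlapped in IL10RAKO mice from Cnn3 to Alpk1 and did not overlap from Alpk1 to Thbs3. In DKO mice they did not overlap between Cnn3, Tifa and Alpk1, overlapped between Alpk1 and Larp7, and did not overlap between Larp7 and Thbs3. Cnn3 thus moved from the third place to the first, and Thbs3 was the lowest in every group.

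**Figure D1:**
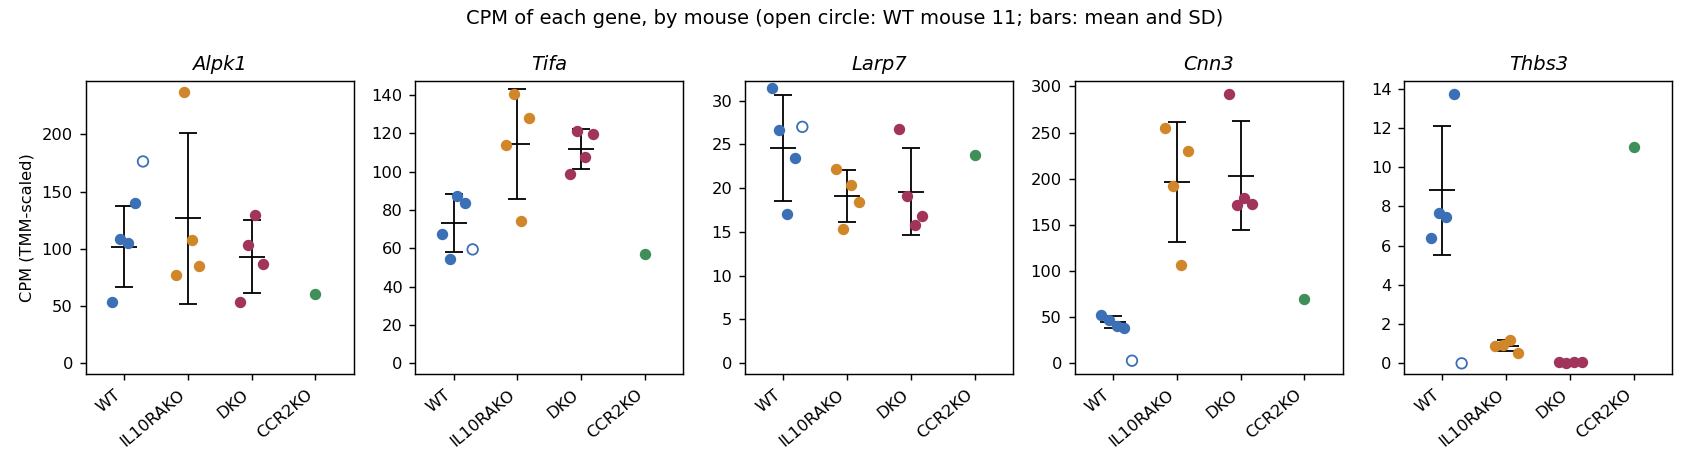
Scaled read counts (CPM, vertical axis from 0 in each panel) of the 5 genes by genotype. Filled points are single mice, the open circle is WT mouse 11, and bars give the mean and SD of 4 libraries. Cnn3 sits at 106.6 to 291.4 CPM in all 8 libraries lacking IL10RA and at 38.4 to 52.2 CPM in the 4 WT libraries, while Thbs3 is higher in these 4 WT libraries than in any library lacking IL10RA and is at 0 in WT mouse 11.

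Against WT, 3 of the 5 genes passed the test in IL10RAKO macrophages (edgeR's quasi-likelihood test with Benjamini-Hochberg adjustment over 13136 genes), among 15.8% of all genes tested. Cnn3 and Tifa were the 2 that rose, where 8.7% of all genes rose, and Thbs3 was the 1 that fell, where 7.1% fell. In DKO macrophages Cnn3 and Tifa again rose, where 9.23% of all genes did. There, 18.5% of all genes passed in either direction and 9.22% fell, and Thbs3 was not tested because it was chosen on those libraries. The comparisons with WT share the WT libraries, so the test of Thbs3 in IL10RAKO is not independent of how that gene was chosen. Between DKO and IL10RAKO, 0 of the 4 genes that could be tested passed after adjustment, where 0.0457% of all genes did. Their unadjusted p-values in that edgeR fit were also above 0.05, the lowest being 0.25. DESeq2 also called 0 of these 4. With library totals in place of TMM scaling, 23.8% of the genes called in IL10RAKO were higher instead of 55.1%, and 25.9% instead of 50.0% in DKO.

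**Figure D2:**
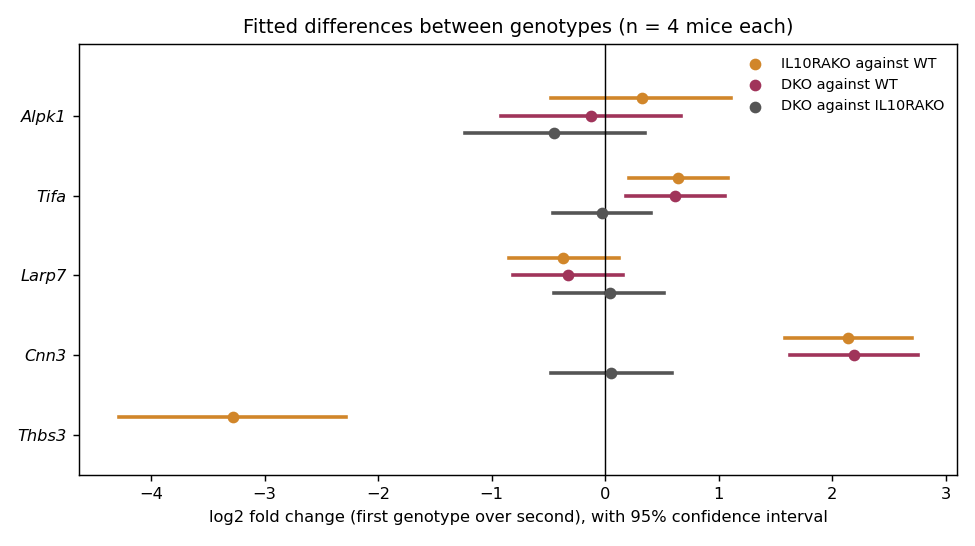
Fitted log2 fold changes (horizontal axis, first genotype over the second) with 95% confidence intervals for 4 genes in 3 comparisons and for Thbs3 in IL10RAKO against WT alone, with n = 4 mice per genotype. The intervals of Cnn3 and Tifa against WT lie above 0, that of Thbs3 in IL10RAKO lies below 0, and the 4 intervals for DKO against IL10RAKO (Alpk1, Tifa, Larp7 and Cnn3) include 0.

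Alpk1, the heptose-sensing kinase, did not pass in any comparison. The WT libraries held 53.9, 108.7, 104.8 and 139.6 CPM in mice 4, 5, 10 and 13, and mouse 11 held 176.3 CPM. IL10RAKO mice 1, 2, 7 and 8 held 77.3, 237.3, 107.5 and 85.0 CPM. DKO mice 3, 9, 12 and 14 held 53.6, 102.9, 129.6 and 86.5 CPM. The groups overlapped throughout, IL10RAKO mouse 2 was the highest library, and the CCR2KO mouse (60.2 CPM) lay within the WT range. Alpk1 did not pass in IL10RAKO against WT (log2 fold change 0.32, 95% confidence interval -0.48 to 1.11, adjusted p = 0.619), in DKO against WT (-0.13, -0.92 to 0.67, adjusted p = 0.853) or in DKO against IL10RAKO (-0.45, -1.24 to 0.35, adjusted p = 1.0). Without IL10RAKO mouse 2, the log2 fold change in IL10RAKO was -0.17.

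Tifa, the adaptor that ALPK1 phosphorylates, was higher in both knockouts by about the same amount. WT mice 4, 5, 10 and 13 held 67.3, 54.6, 87.1 and 83.4 CPM, and mouse 11 held 59.4 CPM. IL10RAKO mice 1, 2, 7 and 8 held 113.9, 140.5, 74.3 and 127.7 CPM, and DKO mice 3, 9, 12 and 14 held 98.7, 121.1, 107.5 and 119.6 CPM. All DKO libraries were above all WT libraries, while IL10RAKO mouse 7 lay inside the WT range, and the CCR2KO mouse (57.1 CPM) lay within it too. Tifa rose 1.56-fold in IL10RAKO (log2 fold change 0.64, standard error 0.203, adjusted p = 0.0452) and 1.53-fold in DKO (0.61, standard error 0.203, adjusted p = 0.0496) by edgeR's quasi-likelihood test. Both adjusted p-values sat just under the threshold of 0.05, and each call was lost when any of 9 of the 12 libraries was left out (highest adjusted p 0.126 and 0.129). With library totals in place of TMM scaling neither call held (log2 fold changes 0.31 and 0.36), and that scaling moved the median of all genes by -0.32 and -0.25 log2 units. DKO differed from IL10RAKO by -0.03 log2 units (95% confidence interval -0.46 to 0.40).

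A list of 17 other tested genes covered the route from ALPK1 and TIFA to NF-kB and, beside that route, the parallel sensor Nod1 and its kinase Ripk2. Of the 17, 6 rose and 0 fell in IL10RAKO, beside 8.7% of all genes that rose. In DKO 7 rose and 0 fell, beside 9.23% of all genes that rose. Nod1 and Ripk2 were among those that rose in both knockouts. The median log2 fold change of the list was 0.46 in IL10RAKO and 0.44 in DKO, beside -0.07 and -0.06 over all genes tested. Traf6, the ubiquitin ligase that TIFA engages, rose from a mean of 41.8 CPM in WT to 85.1 in IL10RAKO (log2 fold change 1.03, adjusted p = 0.00266) and 86.3 in DKO (1.05, adjusted p = 0.00203). Nod1, a cytosolic sensor of bacterial peptidoglycan, rose by 1.43 and 1.73 log2 units (adjusted p = 0.000227 and 4.02e-05), and Ripk2, the kinase that NOD1 recruits, rose by 0.76 and 0.79 (adjusted p = 0.0132 and 0.00899). Nfkbia, which encodes the NF-kB inhibitor IkB-alpha and is itself an NF-kB target, rose from 1813.7 to 4698.5 CPM in IL10RAKO (log2 fold change 1.37, adjusted p = 0.00101) and to 3389.5 CPM in DKO (0.90, adjusted p = 0.0135). The genes that rose therefore included the ubiquitin ligase, the kinase of a parallel sensor and the feedback inhibitor, and between DKO and IL10RAKO 0 of the 17 passed by edgeR's quasi-likelihood test. With library totals in place of TMM scaling, 3 of the 17 rose and 1 fell in IL10RAKO and 4 rose and 1 fell in DKO (medians 0.15 and 0.19). Of all 13136 genes, 651 rose and 2084 fell in IL10RAKO under that scaling. In DKO 748 rose and 2140 fell, and the medians of all genes were -0.385 and -0.317. Traf6, Nod1 and Nfkbia were called higher in both knockouts under that scaling too, and Ripk2 in DKO alone (adjusted p = 0.087 in IL10RAKO). Summed levels of 6 neutrophil markers were higher in the knockouts (76.1 to 126.4 CPM in WT, 145.3 to 332.0 in IL10RAKO, 208.1 to 285.6 in DKO). Those of 6 dendritic cell markers were 215.7 to 1028.4, 1428.8 to 1861.6 and 1017.6 to 1777.3 CPM, with WT and DKO overlapping. Single genes made up most of each sum, Csf3r (means 87.3, 197.7 and 181.3 CPM) and Ccr7 (505.7, 1529.6 and 1356.5 CPM). The dendritic cell markers Flt3, Zbtb46 and Itgae passed in neither knockout. Of the neutrophil markers 5 of 6 rose in each knockout, and of the dendritic cell markers 3 of 6 rose in IL10RAKO and 2 of 6 in DKO. Their part in the values of Tifa, Cnn3 and the pathway genes was not tested.

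Larp7 did not pass in any comparison. WT mice 4, 5, 10 and 13 held 31.4, 26.6, 17.0 and 23.4 CPM, and mouse 11 held 27 CPM. IL10RAKO mice 1, 2, 7 and 8 held 22.2, 15.3, 20.4 and 18.4 CPM, and DKO mice 3, 9, 12 and 14 held 26.7, 19.1, 15.8 and 16.8 CPM. The knockout means (19.1 and 19.6 CPM) were below the WT mean (24.6 CPM), but the ranges overlapped, and the CCR2KO mouse held 23.8 CPM. The log2 fold changes were -0.37 in IL10RAKO (95% confidence interval -0.85 to 0.12, adjusted p = 0.307) and -0.33 in DKO (-0.81 to 0.16, adjusted p = 0.349).

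Among 13 other genes of the 7SK particle and of P-TEFb, 1 rose and 0 fell in each knockout, which is 7.69% of the list, beside 8.7% and 9.23% of all genes that rose. The gene that rose was Ell2, a subunit of the super elongation complex, at 31.7 CPM in WT, 129.9 in IL10RAKO (log2 fold change 2.03, adjusted p = 0.000132) and 122.3 in DKO (1.95, adjusted p = 0.000159). The partners of LARP7 in the 7SK particle did not pass in IL10RAKO or DKO. Mepce, the methylase that caps 7SK RNA, had log2 fold changes of -0.39 and -0.37 (adjusted p = 0.43 and 0.444), Hexim1, the inhibitor of P-TEFb, -0.19 and -0.55 (adjusted p = 0.736 and 0.248), and Cdk9, the kinase of P-TEFb, -0.16 and -0.31 (adjusted p = 0.53 and 0.187). The result for Cdk9 depended on the scaling, since with library totals it was called lower in both knockouts (-0.48 and -0.57, adjusted p = 0.0441 and 0.0201).

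Cnn3 showed the clearest rise of the 5 genes. WT mice 4, 5, 10 and 13 held 52.2, 47.0, 40.6 and 38.4 CPM. IL10RAKO mice 1, 2, 7 and 8 held 255.4, 192.3, 106.6 and 230.1 CPM, and DKO mice 3, 9, 12 and 14 held 291.4, 171.3, 178.8 and 172.2 CPM. Every library without IL10RA was above every WT library. Cnn3 rose 4.4-fold in IL10RAKO (log2 fold change 2.14, standard error 0.262, adjusted p = 7.82e-05) and 4.56-fold in DKO (2.19, standard error 0.262, adjusted p = 5.25e-05) by edgeR's quasi-likelihood test, and both calls held in the 7 other settings and when each of the 12 libraries was left out. DKO and IL10RAKO differed by 0.05 log2 units (95% confidence interval -0.48 to 0.59). WT mouse 11 held 2.86 CPM (39 reads), far below the other WT mice, and the CCR2KO mouse held 69.7 CPM, above all WT mice and below all mice lacking IL10RA. As the CCR2KO group is 1 mouse, this difference has no replicate check.

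Of 12 other genes of the calponin family and the actin filament tested, 2 rose and 6 fell in IL10RAKO (8.7% and 7.1% of all genes), and 1 rose and 6 fell in DKO (9.23% and 9.22% of all genes), and the list's median log2 fold changes were -0.59 and -0.66. Cnn1, the smooth muscle calponin, fell from 4.02 CPM in WT to 0.856 in IL10RAKO (log2 fold change -2.21, adjusted p = 0.0466) and 0.338 in DKO (-3.55, adjusted p = 0.00479). Acta2, the smooth muscle actin, fell as well (log2 fold changes -3.46 and -3.52, adjusted p = 0.000524 and 0.000399), as did the tropomyosins Tpm2 (-2.69 and -2.80) and Tpm1 (-1.16 and -1.08). Cnn2, a calponin found in blood cells, did not pass, with 263.6 CPM in WT against 310.7 CPM in IL10RAKO mice and 287.4 CPM in DKO mice (adjusted p = 0.624 and 0.804). The genes that rose, named after their values were seen, were cytoplasmic Actb in both knockouts (1.02 and 1.12 log2 units) and Tpm4 in IL10RAKO (0.61). With library totals neither was called (adjusted p = 0.109, 0.0548 and 0.268 in the same order), while Cnn1, Acta2, Tpm1 and Tpm2 were called lower as before. Thus the calponins separated, with Cnn3 higher, Cnn1 lower and Cnn2 not called.

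**Figure D3:**
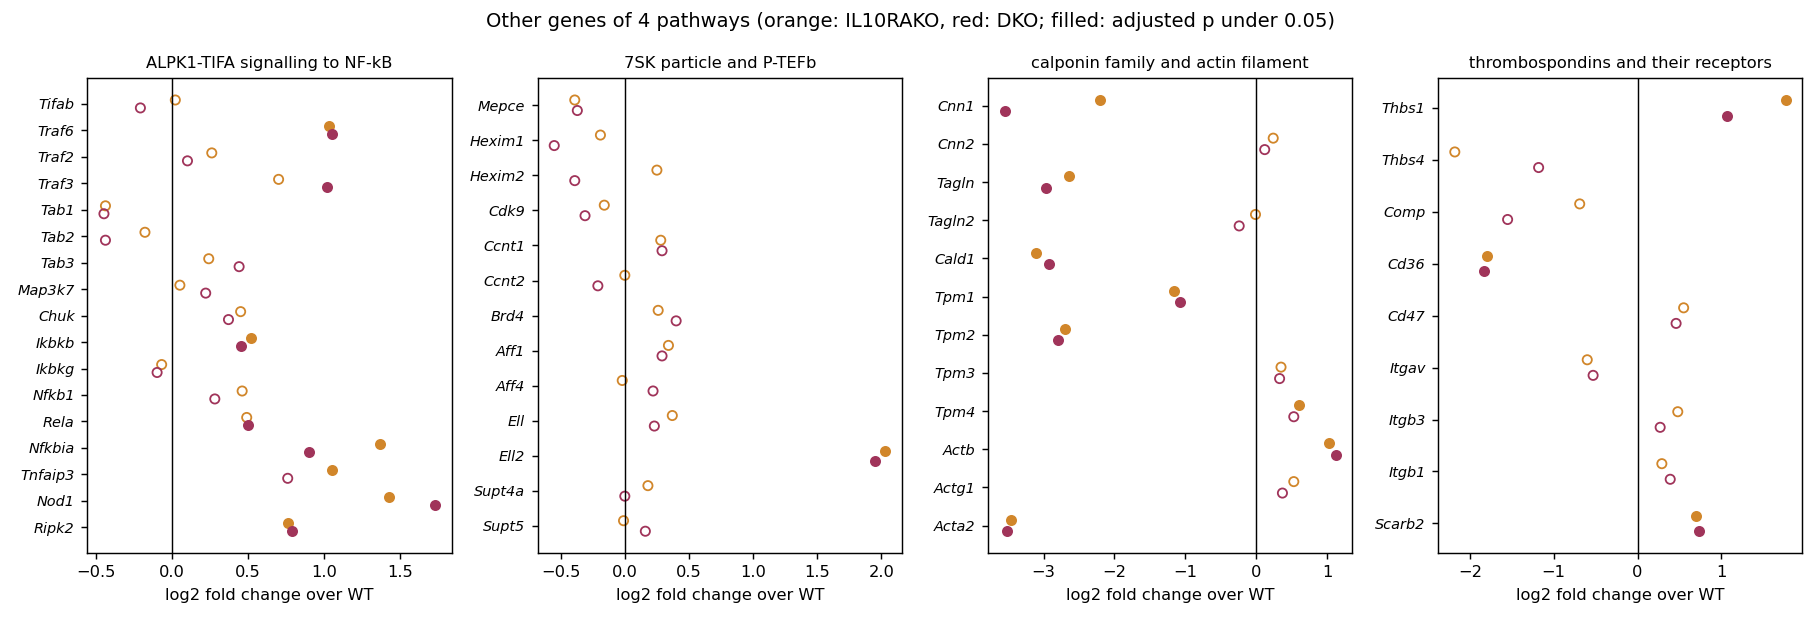
Log2 fold changes over WT (horizontal axis) for the other genes of 4 pathways, 1 gene per line. Orange points are IL10RAKO, red points are DKO, and filled points have an adjusted p under 0.05. Filled points lie only to the right in the ALPK1-TIFA panel under this TMM scaling, although 1 gene fell with library totals, while smooth muscle genes such as Cnn1 and Acta2 lie far to the left in the calponin panel.

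Thbs3 was low in all libraries and fell in IL10RAKO macrophages. WT mice 4, 5, 10 and 13 held 6.4, 7.68, 7.46 and 13.7 CPM (134, 131, 180 and 206 reads). IL10RAKO mice 1, 2, 7 and 8 held 0.905, 0.934, 1.21 and 0.528 CPM (13, 15, 24 and 8 reads). DKO mice 3, 9, 12 and 14 held 1, 0, 1 and 1 reads, and WT mouse 11 held 0 reads. The CCR2KO mouse held 11.0 CPM (223 reads), within the range of those 4 WT mice. This value comes from 1 mouse and has no replicate check. In IL10RAKO against WT, Thbs3 was 9.73-fold lower (log2 fold change -3.28, standard error 0.467, 95% confidence interval -4.28 to -2.28, adjusted p = 0.000263 by edgeR's quasi-likelihood test). The IL10RAKO libraries did not choose the gene, but the 4 WT libraries are those against which its loss stood out. The fit also leaves out WT mouse 11, on which it was chosen, so the call is not independent of that choice. This call kept its side of the threshold when each of the 12 libraries was left out, but with WT mouse 11 added the log2 fold change was -2.96 and the adjusted p was 0.0724.

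As a description of the libraries on which Thbs3 was chosen, 651 reads of the gene were counted over 4 WT libraries, 60 over 4 IL10RAKO libraries, 3 over 4 DKO libraries and 0 in WT mouse 11. Mtx1, the mitochondrial import gene that overlaps Thbs3 on the opposite strand, was counted at 36.3, 33.5 and 32.2 CPM in WT, IL10RAKO and DKO and at 55.9 CPM in WT mouse 11, and it did not pass (adjusted p = 0.691 and 0.513). Whether reads of the shared exon bases entered the counts of Thbs3 was not tested.

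Fibroblast and smooth muscle markers were lower in the same knockout libraries as Thbs3. The summed level of 6 fibroblast markers ranged from 294.2 to 577.1 CPM over the WT mice, from 15 to 53.7 CPM over the IL10RAKO mice and from 16.1 to 67.0 CPM over the DKO mice, with all 6 called lower in both knockouts. That of 6 smooth muscle markers was 30.1 to 150.6, 6.14 to 13.0 and 4.42 to 9.98 CPM, with 5 of 5 tested called lower. The fibroblast sums of DKO and IL10RAKO overlapped. WT mouse 11 held 263.2 CPM of the fibroblast markers and 90.9 CPM of the smooth muscle markers. Its 0 reads of Thbs3 were part of the reason for choosing that gene. The CCR2KO mouse had the highest fibroblast sum, 681.1 CPM. None of these markers was at 0 in all libraries, and Pdgfra was at 0 in WT mouse 11. Bulk libraries cannot tell fewer cells of a type from less RNA per cell. The part of these cells in the values of Thbs3, Cnn1, Acta2 and the tropomyosins was not tested. Cnn3 was higher in the 8 libraries lacking IL10RA, where these markers were lower, than in the 4 WT libraries compared. The 2 further libraries did not follow this. The CCR2KO mouse held 69.7 CPM of Cnn3, above the WT mice, and WT mouse 11 held 2.86 CPM, the lowest of all libraries.

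**Figure D4:**
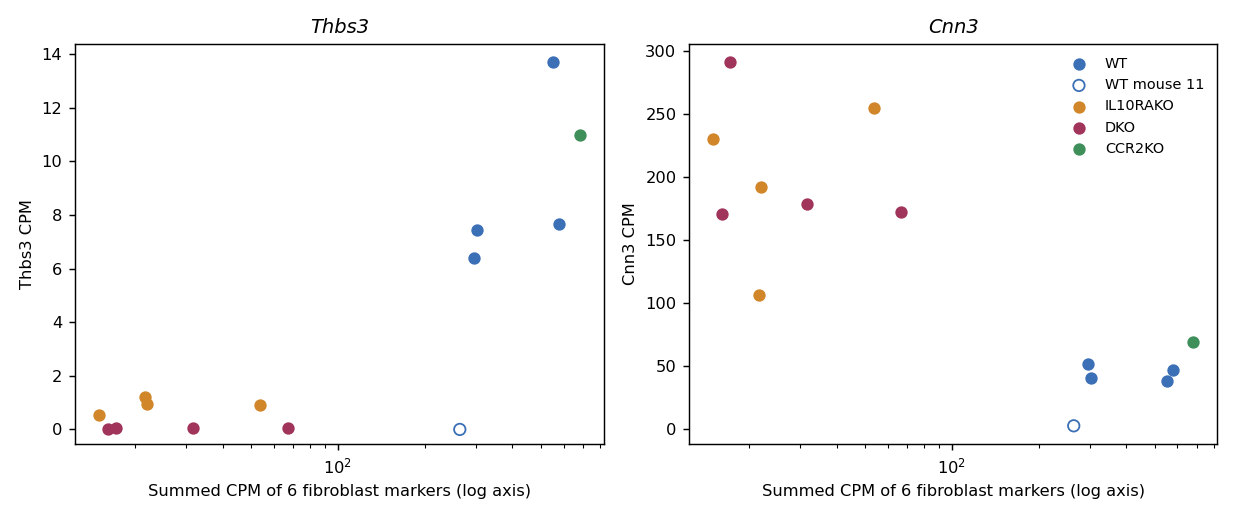
CPM of Thbs3 (left) and Cnn3 (right) on the vertical axes against the summed CPM of 6 fibroblast markers (horizontal log axis), 1 point per library, coloured by genotype, with an open circle for WT mouse 11. The libraries with 6.4 CPM or more of Thbs3 all have a fibroblast sum of 294.2 CPM or more, and WT mouse 11 has a sum of 263.2 CPM with 0 reads of Thbs3.

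Of 9 other thrombospondins and thrombospondin receptors tested, 2 rose and 1 fell in each knockout, which is 33.3% of the list, beside 15.8% of all genes called in IL10RAKO and 18.5% in DKO. Thbs1, a thrombospondin that macrophages and platelets secrete, rose from 547.8 CPM in WT to 1873.0 in IL10RAKO (log2 fold change 1.77, adjusted p = 0.00318) and 1151.1 in DKO (1.07, adjusted p = 0.044). Cd36, a scavenger receptor that binds thrombospondin, fell from 165.9 CPM to 47.8 and 46.6 (log2 fold changes -1.79 and -1.83, adjusted p = 0.00501 and 0.00405). Scarb2, a lysosomal membrane protein of the CD36 family, rose by 0.70 and 0.73 log2 units (adjusted p = 0.00932 and 0.00671). Thbs1 and Thbs3 thus moved in opposite directions in IL10RAKO, also with library totals, where Thbs1 in DKO (adjusted p = 0.101) and Scarb2 in IL10RAKO (adjusted p = 0.102) were not called. Thbs2 did not reach the minimum count for the test, with mean levels of 3.6 CPM (WT), 0.0174 CPM (IL10RAKO) and 0.0138 CPM (DKO mice).

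Genes near the 5 members were examined within 500 kb. Around Alpk1, Tifa and Larp7, 12 other genes were listed and 4 were tested, of which 1, Fam241a, rose in both knockouts (1.21 and 0.97 log2 units, adjusted p = 0.0012 and 0.00513). Ap1ar, which overlaps Tifa on the opposite strand, did not pass (0.18 and 0.38, adjusted p = 0.541 and 0.16), nor did Zgrf1 beside Larp7 (-0.53 and -0.41, adjusted p = 0.54 and 0.64). Around Cnn3, 9 were listed and 5 tested, and 1 of these, F3, which encodes tissue factor, the initiator of blood coagulation, had a WT mean of 5.97 CPM and rose to 86.4 and 78.3 CPM in IL10RAKO and DKO mice (log2 fold changes 3.85 and 3.71, adjusted p = 6.68e-06 and 8.17e-06). F3 lies 265.3 kb from Cnn3, and Alg14, on the other side, did not pass (-0.63 and -0.65, adjusted p = 0.16 and 0.137). Of 33 tested genes around Thbs3, 2 rose (Pmvk and Pbxip1) and 2 fell (Efna1 and Adam15) in each knockout, and the flanking gene Muc1 (-1.10 and -1.12, adjusted p = 0.618 and 0.59) did not pass. Fam241a, F3 and the 4 genes around Thbs3 are named after their values were seen. Over the 614 other tested genes of chromosome 3, 17.8% passed in IL10RAKO and 18.4% in DKO, beside 15.8% and 18.5% of all genes. Between DKO and IL10RAKO, 0 of these 614 genes passed by edgeR's quasi-likelihood test.

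**Figure D5:**
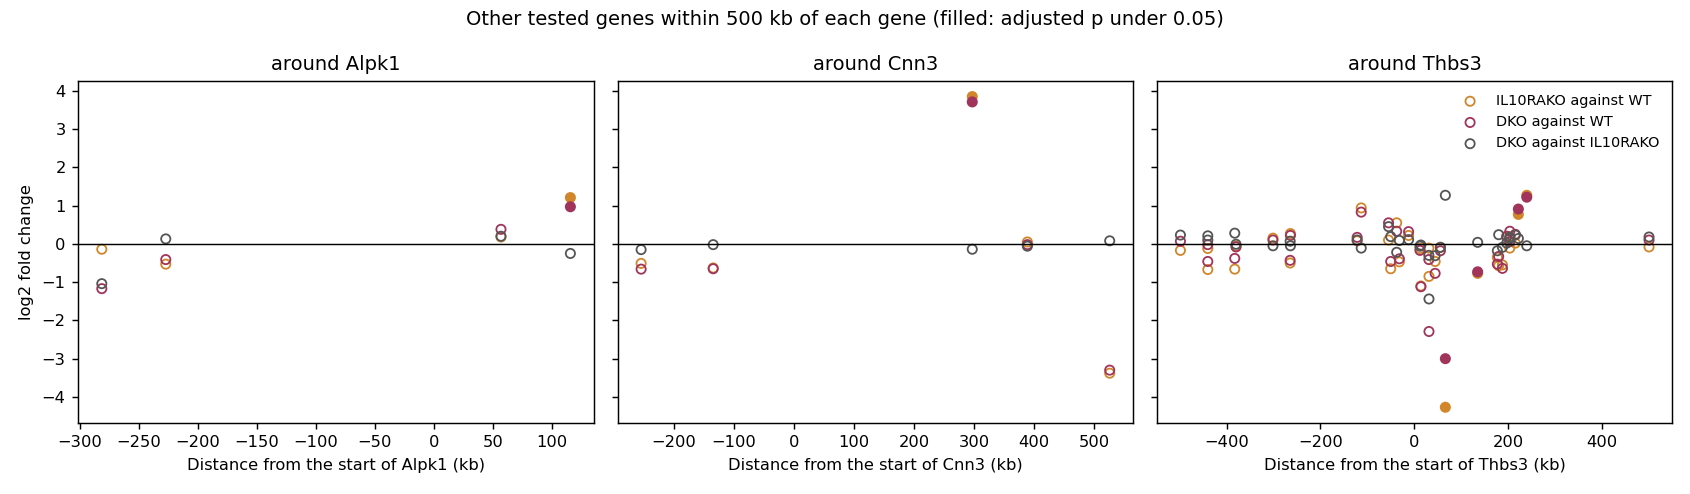
Log2 fold changes (vertical axis) of the other tested genes within 500 kb, by distance in kb from the start of Alpk1, Cnn3 or Thbs3 (horizontal axes). Colours give the 3 comparisons and filled points have an adjusted p under 0.05. F3 stands at 3.85 and 3.71 in the Cnn3 panel, and most points around Thbs3 lie near 0.

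Across the 12 libraries, the profile of Cnn3 was most like those of Tax1bp1 (Pearson's r 0.989 on log2 CPM), Igtp (0.988) and Psmb9 (0.988), and these fell to 0.879, 0.649 and 0.83 over all 14 libraries. Thbs3 was most like Lifr (0.973), Clec4b1 (0.959) and Csad (0.958), with 0.905, 0.794 and 0.775 over 14 libraries. The profile of Tifa was nearest to Pirb (0.958), Dpep2 (0.944) and Selenom (0.941), that of Alpk1 to Tra2a (0.952), Zc3h7a (0.941) and Nlrp1c-ps (0.929), and that of Larp7 to Gar1 (0.96), Dnajc9 (0.924) and Uchl3 (0.92). Of these 15 genes Gar1 alone lies on chromosome 3, and its likeness to Larp7 was 0.241 over 14 libraries. Among the members, Cnn3 and Thbs3 were opposed (r = -0.864), Tifa went with Cnn3 (0.761), and the neighbours Alpk1 and Tifa had an r of 0.255. With WT mouse 11 and the CCR2KO mouse included, the r of Cnn3 and Thbs3 was -0.191. All of these values describe libraries that share genotypes and scaling, and the genes were picked as the most alike among all tested. Thbs3 was chosen for its loss in DKO libraries and WT mouse 11, so each r that involves it rests partly on that choice.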

How the data were processed

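Colonic macrophages were sorted by the authors, SmartSeq v4 cDNA was sequenced, and reads were aligned to mm10. The submitters' notes name bcl2fastq 2.20, STAR 2.5.1b and edgeR 3.34.0. The deposited counts are whole reads per gene, not normalized, for 24982 genes in 14 libraries. The authors also deposited edgeR pseudocounts, a score adjusted to a common library size. It served only to identify 12 libraries. The annotation, strand setting and treatment of multiply aligned reads are not given in the sources used here. All per-sample columns were mapped (0 left out).

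The 12 libraries were fitted together in R 4.3.3 with edgeR 4.0.16 (filterByExpr by genotype, minimum count 10, TMM, glmQLFit with the edgeR 3 deviance, glmQLFTest), with Benjamini-Hochberg adjustment over 13136 genes. The fit was tested on simulated data. Libraries of a genotype were checked for duplicates, and none was found. P-values measure the spread between mice, with litter and cage left out of the model. Symbols matched GENCODE vM21 for 24498 genes, and 484 kept the name in the table. Exon lengths are unions of annotated exons. RefSeq promoter windows were available for all 5 genes. Summaries and figures used pandas 2.3.3 and matplotlib 3.10.9 under Python 3.11.15.

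The members and gene lists were chosen with earlier results of these data known. Beyond the members, genes were named as the 4 called genes of smallest p in each list, partners of a member, the nearest neighbours (1 is not reported here) and the 3 most alike profiles. Alternatives were RLE size factors, library totals, DESeq2 1.42.0, no filter, the edgeR 4 deviance, 13 libraries, only 2 genotypes, and leaving out each library.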

Additional observations from a re-analysis of the deposited data

Results flagged for a closer look

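Of 15 sets of 4 or 5 libraries of a genotype examined for the 5 genes on log2(CPM + 1), 3 held a library far from the others. Chance gives about 1 in 20, but the set with Thbs3 cannot be read against that share, because the gene was chosen for its absence from WT mouse 11. In WT mouse 11, Cnn3 was at 1.95, against 5.30 to 5.73 in the other WT mice (gap over range 0.886), and Thbs3 was at 0.0, against 2.89 to 3.88 (0.744). In DKO mouse 3, Cnn3 was at 8.19, against 7.43 to 7.49 in the other DKO mice (0.919). Cnn3 in the CCR2KO mouse, which entered no comparison, was at 69.7 CPM, above the 38.4 to 52.2 CPM of the 4 WT mice compared.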

How the results depend on the processing

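Of 247 values recomputed for the 5 genes, 211 kept their direction and side of the threshold, 23 lost their call, 0 gained one and 13 changed sign, all 13 among differences that had not passed. Cnn3 against WT and Larp7 kept their calls, or the lack of one, in every alternative, with log2 fold changes of Cnn3 from 1.81 to 2.49. Larp7 against WT ranged from -0.68 to -0.18, and with library totals its adjusted p in IL10RAKO was 0.0507, just above the threshold. For Tifa, leaving out each library gave 0.53 to 0.81 in IL10RAKO and 0.50 to 0.71 in DKO. The libraries whose removal ended a Tifa call in IL10RAKO were WT mice 4, 5 and 13, IL10RAKO mice 1, 2 and 8 and DKO mice 9, 12 and 14, and in DKO they were WT mice 4, 5 and 13, IL10RAKO mice 1 and 8 and all 4 DKO mice. Tifa also lost its call in DKO with RLE size factors (0.62), in IL10RAKO when only the 2 genotypes were fitted (0.64), and in both with library totals (0.31 and 0.36). Thbs3 in IL10RAKO lost its call with 13 libraries (-2.96). Library totals turned Alpk1 in IL10RAKO to -0.01 and Tifa in DKO against IL10RAKO to 0.04. Leaving out each library gave ranges of -0.17 to 0.51 for Alpk1 in IL10RAKO and -0.33 to 0.07 in DKO. Between DKO and IL10RAKO the ranges were -0.65 to 0.05 for Alpk1, -0.17 to 0.09 for Tifa, -0.15 to 0.13 for Larp7 and -0.17 to 0.21 for Cnn3. The cause was not tested. DESeq2 called 24 genes between DKO and IL10RAKO where edgeR called 6, and leaving out each library gave 4 to 10, the highest without IL10RAKO mouse 2. With library totals, 651 genes were higher and 2084 lower in IL10RAKO (1143 and 933 with TMM), and 748 and 2140 in DKO (1213 and 1211). No paired analysis was possible because the groups hold different mice and their numbers are arbitrary. Depth limits Thbs3, for which 3 reads amounted to 0.148 to 0.211 CPM in DKO libraries.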
